A study of Homo sapiens and Mus musculus with 16 samples.

Results

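The genes described here encode the eukaryotic translation initiation factors (eIFs), the proteins that bring messenger RNA, the small ribosomal subunit and the initiator tRNA together. They were chosen by symbol, as rows named EIF1 to EIF6 in human or Eif1 to Eif6 in mouse, leaving out the eIF2 kinases, the eIF4E-binding proteins, the eIF4E transporter and pseudogenes. The rule took 51 of the 58713 rows of the MDA-MB-231 table and 48 of the 53796 rows of the CT26 table. RNA had been sequenced from 16 libraries in 4 groups of 4: MDA-MB-231 cells, a human triple-negative breast cancer line, with a CRISPR knockout of PD-L1 delivered by lentivirus (KO) and with wild type PD-L1 (WT), and CT26 cells, a mouse colon carcinoma line, as KO and as WT. PD-L1 sits on the cell surface and binds PD-1 on T cells, and the cells were grown in culture without T cells as far as the labels say. The sources used here do not say whether a KO line was a clone or a pool, whether the WT cells carried a control vector, or whether libraries of a group were separate cultures. All p-values therefore measure the spread between libraries, which may be technical.

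Initiation begins when eIF2 loads the initiator tRNA onto the small subunit, where eIF1, eIF1A, eIF3 and eIF5 hold it ready to scan. The eIF4 factors bind the cap of the messenger RNA and unwind its leader, and eIF2B recharges eIF2 with GTP after each round. In tumour cells several of these factors are known to be raised and to be drug targets, and cells tune the pathway mostly through phosphorylation of eIF2 and through the proteins that hold eIF4E.

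Many messenger RNAs of the translation machinery start with a C followed by a run of pyrimidines, the 5' terminal oligopyrimidine tract that LARP1 reads. RefSeq start windows (GRCh38.p14) were taken for 43 of the 51 human genes, 3 of them noncoding. None was taken for EIF1AY, EIF2S2, EIF3A, EIF3CL, EIF3E, EIF3G, EIF3H and EIF3L. A C at the annotated start with at least 4 further C or T was found at a start of 10 of the 43, or 23.3%. It was found in 988 of 15843 protein-coding genes with a window, or 6.24%, and in 1404 of 27305 genes of any type, or 5.14%. These 10 are shown so that the run can be seen, each 60 bases from 40 before the start, 5' to 3' on the gene's own strand, with the unbroken pyrimidine run from the start in capitals.
EIF2A, chr3:150546747-150546806, plus strand: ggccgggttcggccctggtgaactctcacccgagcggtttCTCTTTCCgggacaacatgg
EIF2D, chr1:206612446-206612505, minus strand: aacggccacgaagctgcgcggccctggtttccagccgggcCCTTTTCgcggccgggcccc
EIF2S3, chrX:24054916-24054975, plus strand: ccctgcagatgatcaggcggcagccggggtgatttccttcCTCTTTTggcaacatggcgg
EIF2S3B, chr12:10505850-10505909, plus strand: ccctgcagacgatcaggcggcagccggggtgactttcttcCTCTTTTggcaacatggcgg
EIF3D, chr22:36529147-36529206, minus strand: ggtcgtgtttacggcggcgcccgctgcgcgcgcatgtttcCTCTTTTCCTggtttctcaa
EIF3F, chr11:7987297-7987356, plus strand: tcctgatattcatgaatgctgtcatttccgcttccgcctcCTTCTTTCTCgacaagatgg
EIF3K, chr19:38619148-38619207, plus strand: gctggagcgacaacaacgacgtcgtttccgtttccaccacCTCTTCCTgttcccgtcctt
EIF3M, chr11:32583791-32583850, plus strand: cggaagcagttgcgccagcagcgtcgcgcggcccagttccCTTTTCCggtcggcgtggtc
EIF4A2, chr3:186783537-186783596, plus strand: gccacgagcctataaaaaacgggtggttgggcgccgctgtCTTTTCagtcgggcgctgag
EIF4B, chr12:53006416-53006475, plus strand: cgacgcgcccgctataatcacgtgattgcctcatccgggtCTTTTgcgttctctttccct
EIF3J, EIF2B2 and EIF2S1, which are among the 5 members with the largest rises in the human line, have no such run at the annotated start and are shown for comparison.
EIF3J, chr15:44537107-44537166, plus strand: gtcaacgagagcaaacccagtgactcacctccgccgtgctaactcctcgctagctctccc
EIF2B2, chr14:75002881-75002940, plus strand: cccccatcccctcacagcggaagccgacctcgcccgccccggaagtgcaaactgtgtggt
EIF2S1, chr14:67360288-67360347, plus strand: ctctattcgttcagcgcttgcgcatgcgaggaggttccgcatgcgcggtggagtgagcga
In MDA-MB-231, 7 of the 10 genes with a run were higher in KO (Benjamini-Hochberg adjusted p under 0.05 in limma), where 42.6% of all genes tested were, 1 was lower, where 25.7% of all genes were, and 2 were not called, with a median log2 fold change of 0.78. Of the 33 without a run, 23 were higher, 1 was lower, 5 were not called and 4 were not tested, with a median of 0.49. The highest value was 1.04 with a run and 1.60 without one. Transcript starts in these cells were not measured.

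Of the 51 human genes, 45 passed the filter of at least 1 FPKM (fragments scaled by transcript length and by the size of the library) in at least 4 of the 8 libraries of the line, and 43 of the 48 mouse genes did. Those not tested in MDA-MB-231 were EIF1AY, EIF3CL, EIF4E1B, EIF4E3, EIF1AX-AS1 and EIF1B-AS1, and in CT26 Eif4e1b, Eif4e3, Eif2s3y, Eif5a2 and Eif2c5. EIF4E3, an eIF4E relative, had 0.241, 0.755, 0.539 and 0.368 FPKM in MDA-MB-231 KO and 1.13, 0.847, 0.965 and 0.717 FPKM in WT. The symbol rule also takes Eif2c5, an old name from the Argonaute family, and the noncoding EIF3J-DT. Genes are called higher or lower in KO at a Benjamini-Hochberg adjusted p under 0.05 in limma over all genes tested, on log2(FPKM + 1).

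The initiation factor genes were mostly higher in MDA-MB-231 KO. In CT26 KO they went both ways, in shares near those of all genes tested. In MDA-MB-231, 35 of the 45 tested genes were higher in KO, where 42.6% of all genes tested were higher, and 2 were lower, where 25.7% of all genes were. The 8 not called were EIF1AD, EIF1AX, EIF2D, EIF2S3B, EIF3E, EIF4E, EIF4G1 and EIF5B. The median log2 fold change of the tested members was 0.61, against 0.18 for all genes tested. A change of at least 1 on log2(FPKM + 1) was seen in 6 called members, all of them higher in KO. The smallest of these, EIF3K at 1.01, stood at percentile 88.4 of the log2 fold changes of all genes tested. Many other genes therefore rose as far. EIF3C was at 248% of WT in FPKM but, at so low a level, only at 0.68 on that scale. In CT26, 10 of 43 were higher, against 22.3% of all genes, 13 were lower, against 33.4%, and 20 were not called. The median there was -0.05, against -0.06 for all genes, and no tested member passed a 2-fold change. Because the set was proposed with results of these data in view, these counts are a description only. In bulk RNA of this kind, fewer cells of a type and less RNA per cell cannot be told apart.

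The authors' deposited table gave a q-value under 0.05 to 33 members in MDA-MB-231, where 58% of all genes tested had one, and to 18 members in CT26, where 45.5% had one. The KO and WT libraries did not overlap for 37 tested members in MDA-MB-231, against 62.7% of all genes, and for 22 in CT26, against 51.5%. Since the median of all genes lay at 0.18 in MDA-MB-231, the counts were also taken after upper-quartile scaling, which moved that median to -0.01. Then 28 members were higher in MDA-MB-231 KO, against 32.8% of all genes, and 9 were lower, against 33.6%. EIF1, EIF2B3, EIF2B4, EIF4E2, EIF4G2, EIF4G3 and EIF4H lost their call, and EIF1AD, EIF2D, EIF2S3B, EIF3E, EIF4E, EIF4G1 and EIF5B became lower. In CT26 the same scaling gave 16 higher, against 29.2% of all genes, and 11 lower, against 25.1%. There Eif2a, Eif2b3, Eif2d, Eif3j1, Eif3m and Eif4g3 became higher, and Eif4a3 and Eif4b lost their call.

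**Figure D1:**
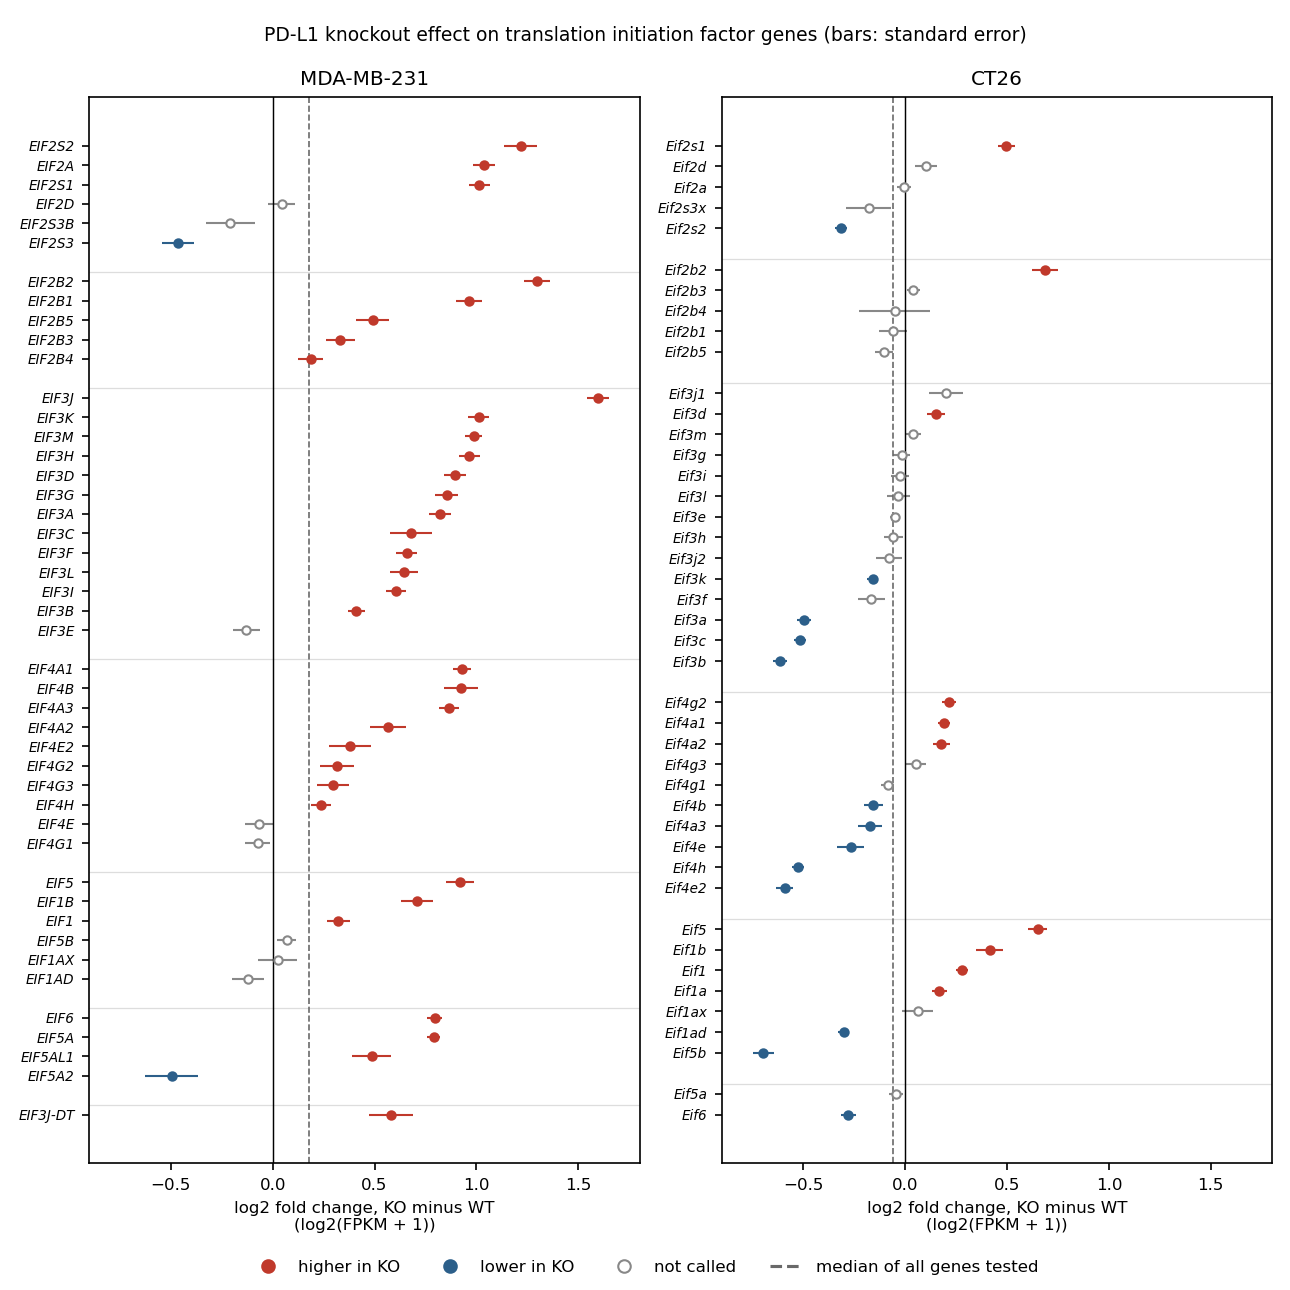
Log2 fold change, KO minus WT, on log2(FPKM + 1) for each tested member in MDA-MB-231 (left) and CT26 (right), grouped by role from the initiator tRNA carriers at the top to eIF5A and eIF6, with standard errors as bars and the median of all genes as a dashed line. In MDA-MB-231 35 of 45 members are higher in KO, where 42.6% of all genes tested are. Only EIF2S3 and EIF5A2 are lower, where 25.7% of all genes are. In CT26 10 of 43 are higher, where 22.3% of all genes are, and 13 lower, where 33.4% are.

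Within eIF2 itself the 3 subunits moved apart. EIF2S1 encodes the alpha subunit, the site of the phosphorylation that stops initiation under stress, EIF2S2 the beta subunit and EIF2S3 the gamma subunit, which binds GTP and the initiator tRNA. EIF2S1 had 370.5, 396, 379 and 369.7 FPKM in MDA-MB-231 KO and 171, 200.0, 185 and 192 FPKM in WT. Every KO library lay above every WT library, and the log2 fold change was 1.01 (SE 0.0527, limma adjusted p 4.07e-07). EIF2S2 had 134, 136, 121 and 125 FPKM in KO and 48.1, 61.2, 52.4 and 58.8 FPKM in WT, again with no overlap and a log2 fold change of 1.22 (SE 0.0806, limma adjusted p 1.79e-06). EIF2S3 went the other way, with 62.4, 58.4, 53.4 and 58.6 FPKM in KO and 85.2, 70.5, 80.0 and 87.6 FPKM in WT. All 4 KO libraries were below all 4 WT libraries, at a log2 fold change of -0.46 (SE 0.0773, limma adjusted p 6.35e-04). Reads of the beta and gamma subunit genes can be split with copies, since 21.3% of the distinct 50-base stretches of EIF2S2 in GENCODE 29 transcripts also occur in EIF2S2P4 and 18.1% of those of EIF2S3 in EIF2S3B. EIF2S3B itself stood at 1.67 ± 0.292 FPKM in KO and 2.08 ± 0.300 FPKM in WT (SD, n = 4 each) and was not called.

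In CT26 the alpha subunit was also higher in KO, the beta subunit lower. Eif2s1 had 179.7, 172, 178 and 175 FPKM in KO and 128, 131, 116 and 124 FPKM in WT, with no overlap and a log2 fold change of 0.50 (SE 0.0407, limma adjusted p 2.00e-05). Eif2s2 had 136, 141, 132 and 140.4 FPKM in KO and 172, 171, 165 and 174 FPKM in WT, a log2 fold change of -0.31 (SE 0.0306, limma adjusted p 5.11e-05). Eif2s3x, the X-linked gamma subunit gene, overlapped between groups at 15.2 ± 2.34 FPKM in KO and 17.3 ± 1.65 FPKM in WT (SD, n = 4 each) and was not called, and Eif2s3y was listed at 0 in every library. Within a library the ratio of EIF2S1 to EIF2S3 was 6.52 ± 0.507 in MDA-MB-231 KO and 2.34 ± 0.354 in WT (SD, n = 4 each). The ratio of EIF2S2 to EIF2S3 was 2.22 ± 0.0938 in KO and 0.690 ± 0.128 in WT. In CT26 Eif2s1 to Eif2s3x stood at 11.8 ± 1.78 in KO and 7.27 ± 0.727 in WT, while Eif2s2 to Eif2s3x overlapped between the groups.

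Of the other carriers of initiator tRNA, EIF2A, a single protein that can deliver it without eIF2, had 185, 203, 179.8 and 181 FPKM in MDA-MB-231 KO and 94.2, 84.6, 90.9 and 93.0 FPKM in WT. The groups did not overlap, and the log2 fold change was 1.04 (SE 0.0545, limma adjusted p 4.33e-07). EIF2D was not called in either line, at 39.7 ± 2.31 FPKM in KO and 38.5 ± 2.54 FPKM in WT of MDA-MB-231 (SD, n = 4 each). Eif2a was likewise not called in CT26, at 64.8 ± 2.38 FPKM in KO and 65.0 ± 1.29 FPKM in WT.

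**Figure D2:**
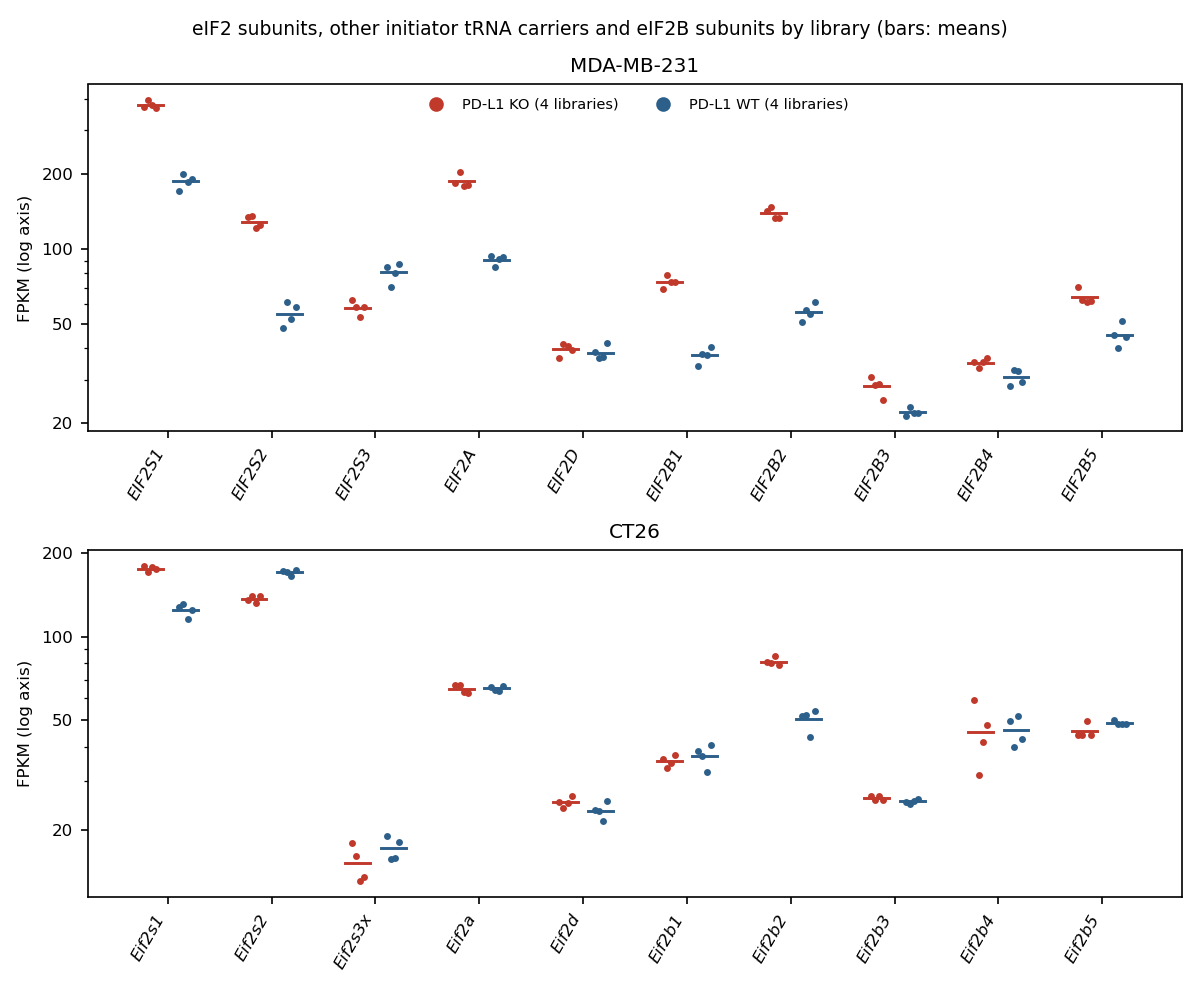
FPKM on a log axis for each library of the eIF2 subunit genes, the other initiator tRNA carriers and the eIF2B subunit genes, in MDA-MB-231 (top) and CT26 (bottom), with KO libraries left of WT libraries and short bars at the means. EIF2S1 and EIF2S2 lie higher in KO and EIF2S3 lower in KO in MDA-MB-231, and Eif2b2 and Eif2s1 lie higher in KO in CT26.

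The eIF2B complex swaps GDP for GTP on eIF2. All 5 of its subunit genes were called higher in MDA-MB-231 KO, where 42.6% of all genes tested were. In CT26 1 was higher, where 22.3% of all genes were, and 4 were not called. EIF2B2, the beta subunit, had 143, 147, 134 and 133 FPKM in KO and 50.9, 57.0, 55.2 and 61.3 FPKM in WT. The lowest KO library stood well above the highest WT library, at a log2 fold change of 1.30 (SE 0.0638, limma adjusted p 2.93e-07). The GENCODE 29 gene AL049780.3 holds 18.8% of its distinct 50-base stretches. EIF2B1, the alpha subunit, which helps the complex sense phosphorylated eIF2, had 69.2, 79.0, 74.1 and 73.9 FPKM in KO and 34.1, 37.8, 37.6 and 40.3 FPKM in WT, a log2 fold change of 0.97 (SE 0.0638, limma adjusted p 1.77e-06). The catalytic subunit EIF2B5 averaged 64.1 ± 4.44 FPKM in KO and 45.4 ± 4.64 FPKM in WT (SD, n = 4 each). EIF2B3 and EIF2B4 had log2 fold changes of 0.33 and 0.19, beside a median of 0.18 for all genes tested. Both lost their calls after upper-quartile scaling, where EIF2B4 stood at -0.03. Eif2b2 was the CT26 member with the largest rise, with 81.1, 80.1, 85.2 and 78.7 FPKM in KO and 51.5, 52.0, 43.6 and 54.0 FPKM in WT. No library of one group reached the other, and the log2 fold change was 0.69 (SE 0.0655, limma adjusted p 4.57e-05). Eif2b4 had the widest spread of the complex, from 31.8 to 59.1 FPKM in CT26 KO and from 39.8 to 51.7 FPKM in WT.

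eIF3 is the largest factor, a scaffold that binds the small subunit and recruits the messenger RNA. In MDA-MB-231 12 of its 14 subunit genes were higher in KO, where 42.6% of all genes tested were. EIF3E was not called and EIF3CL was not tested. In CT26 1 of 14 was higher, where 22.3% of all genes were, 4 were lower, where 33.4% were, and 9 were not called. EIF3J, a loosely bound subunit that sits in the mRNA channel of the small subunit, had the largest rise of all members. Its libraries read 132, 137, 129 and 123 FPKM in MDA-MB-231 KO and 41.9, 44.9, 39.5 and 43.6 FPKM in WT, so the groups lay far apart at a log2 fold change of 1.60 (SE 0.0540, limma adjusted p 3.55e-08). GENCODE 29 places EIF3J at chr15:44537057-44563029 on the plus strand of GRCh38, while the interval in the deposited table runs on to 44663678. Deposited intervals were also wider for other members, among them EIF2A, EIF2S1, EIF2S2, EIF3M, EIF4A1 and EIF6, but not for EIF3K. The divergent noncoding EIF3J-DT, which starts on the other strand beside it, averaged 5.22 ± 0.803 FPKM in KO and 3.14 ± 0.225 FPKM in WT (SD, n = 4 each). The mouse has a pair of eIF3j genes, Eif3j1 at 4.24 ± 0.348 FPKM in KO and 3.56 ± 0.392 FPKM in WT and Eif3j2 at 6.82 ± 0.353 FPKM in KO and 7.27 ± 0.534 FPKM in WT, and neither was called.

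Other large rises in MDA-MB-231 KO were those of EIF3K, EIF3M and EIF3H, subunits that the eIF3 of budding yeast lacks. EIF3K had 488, 506, 459 and 444 FPKM in KO and 236, 246, 232 and 225 FPKM in WT, a log2 fold change of 1.01 (SE 0.0507, limma adjusted p 3.29e-07). EIF3M had 671, 722, 648 and 662 FPKM in KO and 332, 349.7, 332 and 347 FPKM in WT, a log2 fold change of 0.99 (SE 0.0428, limma adjusted p 1.46e-07). EIF3H averaged 386 ± 12.1 FPKM in KO and 198 ± 12.5 FPKM in WT (SD, n = 4 each). No KO library of these genes came down to a WT library. EIF3E, which budding yeast lacks as well, overlapped between the groups, with 236 to 290.2 FPKM in KO and 271 to 298 FPKM in WT, and became lower after upper-quartile scaling at a log2 fold change of -0.35.

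In CT26 Eif3a, Eif3b and Eif3c were lower in KO. Their products, with those of Eif3g and Eif3i, form the core of eIF3 that budding yeast shares, and Eif3g and Eif3i were not called. Eif3b had 175, 186, 172 and 179 FPKM in KO and 276, 283, 264 and 269 FPKM in WT, a log2 fold change of -0.61 (SE 0.0342, limma adjusted p 2.51e-06). Eif3c had 152, 147, 146 and 144 FPKM in KO and 206, 210.4, 209 and 219 FPKM in WT, a log2 fold change of -0.52 (SE 0.0289, limma adjusted p 2.56e-06). Eif3a had 91.7, 91.5, 88.0 and 86.4 FPKM in KO and 125, 127, 131 and 123 FPKM in WT, a log2 fold change of -0.50 (SE 0.0325, limma adjusted p 5.95e-06). In each of these genes the highest KO library was below the lowest WT library. Eif3k was the fourth lower subunit, at -0.16, and Eif3d, a subunit that can bind the cap itself, was higher, at 0.15. The libraries of Eif3d overlapped, at 619 to 690 FPKM in KO and 572 to 635 FPKM in WT, and its authors' q-value was 0.497.

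EIF3A, EIF3B and EIF3C were higher in MDA-MB-231 KO. EIF3A had 113, 127, 125 and 119.6 FPKM in KO and 65.8, 65.6, 69.2 and 71.6 FPKM in WT, and EIF3B averaged 226 ± 6.14 FPKM in KO and 169.9 ± 7.47 FPKM in WT (SD, n = 4 each). The KO effect in MDA-MB-231 minus that in CT26, tested in 1 fit of both lines, was 1.32 for EIF3A (limma adjusted p 1.35e-11) and 1.03 for EIF3B (limma adjusted p 5.49e-11). EIF3C differed by 1.20 (limma adjusted p 7.46e-09), but its human level is uncertain. It was listed at 1.70 ± 0.210 FPKM in KO and 0.685 ± 0.131 FPKM in WT, below every other tested human eIF3 subunit, and 42.3% of its distinct 50-base stretches also occur in its near copy EIF3CL, which shares 97.2% of its own with EIF3C.

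**Figure D3:**
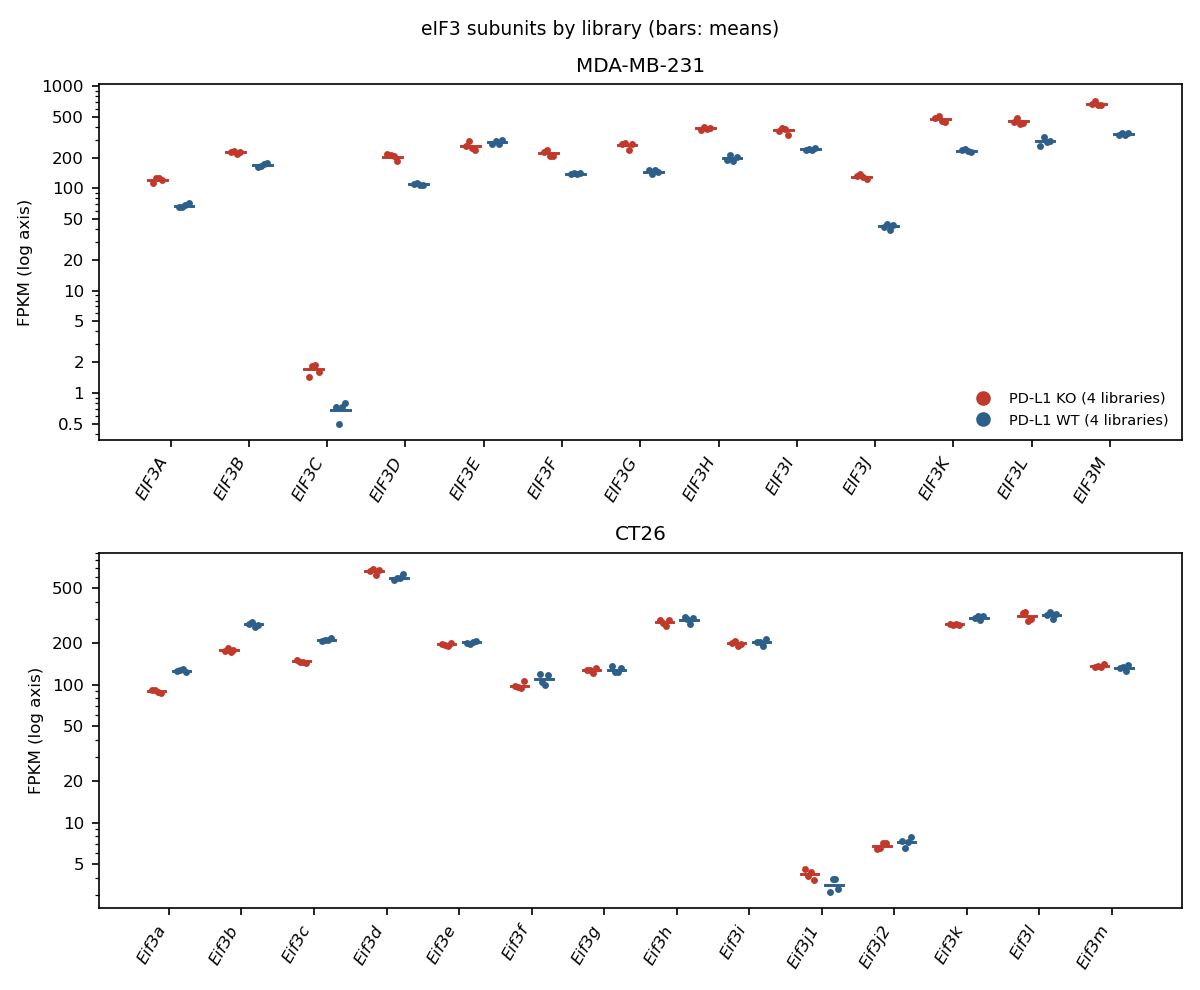
FPKM on a log axis for each library of the eIF3 subunit genes in MDA-MB-231 (top) and CT26 (bottom), with KO libraries left of WT libraries and short bars at the means. EIF3J is highest above its WT libraries in MDA-MB-231 KO and EIF3C is listed near 1 FPKM, while Eif3a, Eif3b and Eif3c are lower in CT26 KO.

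The eIF4 factors bind the cap and unwind the leader. In MDA-MB-231 8 of 12 were higher in KO, where 42.6% of all genes tested were. EIF4E and EIF4G1 were not called, and EIF4E1B and EIF4E3 were not tested. In CT26 3 were higher, where 22.3% of all genes were, and 5 were lower, where 33.4% were. Eif4g1 and Eif4g3 were not called, and Eif4e1b and Eif4e3 were listed at 0. EIF4A1, the helicase of the complex, had 1774, 1924, 1788 and 1845 FPKM in MDA-MB-231 KO and 906, 973, 1001 and 970.0 FPKM in WT. The groups lay far apart, at a log2 fold change of 0.93 (SE 0.0431, limma adjusted p 2.14e-07). Its paralogue EIF4A2 had 357, 416, 376 and 423 FPKM in KO and 228, 282, 259.5 and 295 FPKM in WT, a log2 fold change of 0.56 (SE 0.0884, limma adjusted p 4.26e-04). Within each library EIF4A1 therefore outweighed EIF4A2 by a ratio of 4.68 ± 0.252 in KO and 3.64 ± 0.325 in WT (SD, n = 4 each), without overlap. In CT26 both helicase genes were higher in KO, Eif4a1 by 0.19 and Eif4a2 by 0.18, and their ratio overlapped between groups at 5.34 ± 0.315 in KO and 5.29 ± 0.248 in WT. The overlapping GENCODE 29 gene AC016876.2 holds 33.9% of the distinct 50-base stretches of EIF4A1, so its reads can be split.

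EIF4E, the cap-binding protein and a limiting factor in many cells, did not pass the test in MDA-MB-231. It had 23.8, 27.5, 24.5 and 24.8 FPKM in KO and 24.5, 28.1, 25.2 and 27.7 FPKM in WT, and the groups overlapped at a log2 fold change of -0.07 (SE 0.0694, limma adjusted p 0.426). Eif4e was lower in CT26, with 250.4, 264, 225 and 221 FPKM in KO and 269.7, 287, 291 and 308 FPKM in WT, at a log2 fold change of -0.27 (SE 0.0654, limma adjusted p 8.09e-03). EIF4E2, a cap-binding relative that represses translation, had 78.9, 75.2, 57.3 and 63.4 FPKM in MDA-MB-231 KO and 48.2, 50.6, 55.1 and 54.8 FPKM in WT. Its KO libraries spread widely down to just above the WT range, and the log2 fold change of 0.38 (SE 0.103, limma adjusted p 9.59e-03) lost its call after upper-quartile scaling. Eif4e2 fell in CT26 KO, with 75.2, 77.1, 75.7 and 79.3 FPKM in KO and 121, 113, 109.7 and 121 FPKM in WT, a log2 fold change of -0.59 (SE 0.0403, limma adjusted p 7.34e-06).

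EIF4G1, the scaffold that joins eIF4E, eIF4A and eIF3, had 327, 319, 325 and 359.9 FPKM in MDA-MB-231 KO and 353, 328, 334 and 387 FPKM in WT, with overlap and a log2 fold change of -0.07 (SE 0.0618, limma adjusted p 0.320). Eif4g1 was not called in CT26 either, at 173 ± 4.91 FPKM in KO and 183 ± 5.70 FPKM in WT (SD, n = 4 each). EIF4G2, also known as DAP5, lacks the part that binds eIF4E and supports initiation away from the cap complex. It was higher in KO in both lines, at 2341 ± 185 FPKM in KO and 1882 ± 178 FPKM in WT of MDA-MB-231 and at 579.7 ± 22.4 FPKM in KO and 499 ± 15.1 FPKM in WT of CT26 (SD, n = 4 each). The log2 fold changes were 0.32 (limma adjusted p 7.70e-03) and 0.22 (limma adjusted p 9.36e-04), and the human call was lost after upper-quartile scaling, at 0.10. The ratio of Eif4g1 to Eif4g2 was 0.298 ± 0.0141 in CT26 KO and 0.368 ± 0.0194 in WT, without overlap. That of EIF4G1 to EIF4G2 overlapped in MDA-MB-231, at 0.143 ± 0.0207 in KO and 0.187 ± 0.0222 in WT. EIF4G3 averaged 34.6 ± 1.93 FPKM in MDA-MB-231 KO and 28.1 ± 2.91 FPKM in WT, and Eif4g3 13.9 ± 0.710 FPKM in CT26 KO and 13.3 ± 0.526 FPKM in WT.

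The helicase cofactors EIF4B and EIF4H and the related helicase EIF4A3, a part of the exon junction complex, were higher in MDA-MB-231 KO and lower in CT26 KO. EIF4B averaged 73.9 ± 4.30 FPKM in KO and 38.6 ± 4.28 FPKM in WT of MDA-MB-231 (SD, n = 4 each). Eif4h had 199, 199, 202 and 192 FPKM in CT26 KO and 278, 289, 283 and 293 FPKM in WT, a log2 fold change of -0.53 (SE 0.0277, limma adjusted p 1.93e-06), with no overlap. The falls of Eif4b and Eif4a3 in CT26, at -0.16 and -0.17, lost their calls after upper-quartile scaling.

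**Figure D4:**
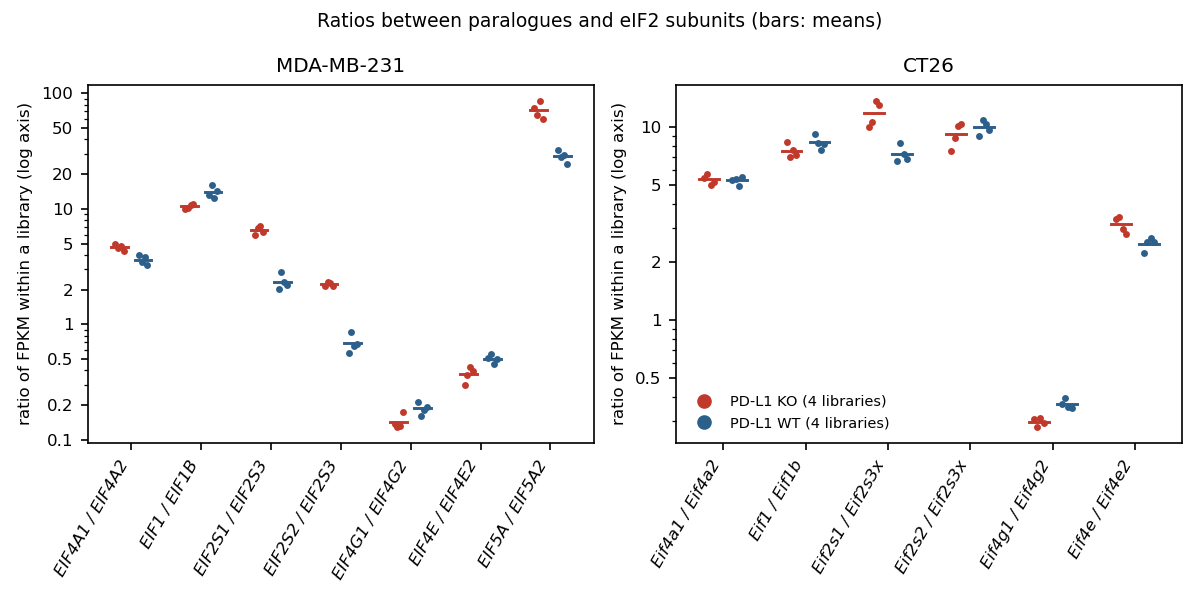
Ratios of FPKM between paralogues and between eIF2 subunit genes within each library on a log axis, in MDA-MB-231 (left) and CT26 (right), with KO libraries left of WT libraries and short bars at the means. In MDA-MB-231 the ratios over EIF2S3 and EIF5A2 are set apart between KO and WT, with EIF5A over EIF5A2 at 71.6 in KO and 28.6 in WT.

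Among the genes grouped as start codon selection and subunit joining, 3 of 7 were higher in MDA-MB-231 KO, where 42.6% of all genes tested were. Of the others 3 were not called, among them EIF1AD, which was grouped here by its name, and EIF1AY was not tested. In CT26 4 of 7 were higher, where 22.3% of all genes were, 2 were lower, where 33.4% were, and 1 was not called. EIF5, which triggers GTP hydrolysis on eIF2 at the start codon, was higher in KO in both lines. It had 322, 352, 306 and 327 FPKM in MDA-MB-231 KO and 157, 170.2, 169 and 193 FPKM in WT, a log2 fold change of 0.92 (SE 0.0684, limma adjusted p 3.67e-06). Eif5 had 451, 446, 441 and 461 FPKM in CT26 KO and 298, 272, 269 and 308 FPKM in WT, a log2 fold change of 0.65 (SE 0.0471, limma adjusted p 1.02e-05). In neither line did a KO library fall within the WT range.

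EIF1, the gatekeeper of start codon choice, and its paralogue EIF1B were also higher in KO in both lines. EIF1 had 528, 527, 479.9 and 489.9 FPKM in MDA-MB-231 KO and 383, 435, 386 and 416 FPKM in WT, and Eif1 had 378, 385, 362 and 373 FPKM in CT26 KO and 317, 309, 297 and 311 FPKM in WT. The rise of 0.32 in the human gene (limma adjusted p 7.62e-04) lost its call after upper-quartile scaling, at 0.10, and that of 0.28 in the mouse gene (limma adjusted p 9.75e-05) did not. EIF1B had 52.5, 51.7, 44.1 and 44.3 FPKM in MDA-MB-231 KO and 29.1, 26.8, 31.1 and 29.1 FPKM in WT, and Eif1b had 45.3, 55.4, 48.0 and 51.8 FPKM in CT26 KO and 34.7, 37.4, 39.1 and 38.0 FPKM in WT. The log2 fold changes of 0.71 (limma adjusted p 4.41e-05) and 0.41 (limma adjusted p 8.68e-04) were above those of EIF1 and Eif1. EIF1B lost its call when the median of its 20 Mb stretch of chromosome was taken off, at 0.17 (limma adjusted p 0.0936). The ratio of EIF1 to EIF1B was accordingly lower in KO, at 10.5 ± 0.494 in MDA-MB-231 KO and 14.03 ± 1.67 in WT without overlap, and overlapped at 7.51 ± 0.605 in CT26 KO and 8.30 ± 0.636 in WT (SD, n = 4 each).

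EIF5B, the GTPase that joins the ribosomal subunits, was the largest fall of CT26 and was not called in MDA-MB-231. Eif5b had 44.0, 48.6, 40.5 and 44.6 FPKM in CT26 KO and 72.4, 71.8, 73.4 and 72.2 FPKM in WT, a log2 fold change of -0.70 (SE 0.0513, limma adjusted p 1.14e-05) with no overlap. EIF5B had 61.2, 56.7, 56.7 and 60.9 FPKM in MDA-MB-231 KO and 55.2, 55.7, 57.9 and 55.4 FPKM in WT, and the groups overlapped. EIF1AX, the eIF1A gene of the X chromosome, was not called in either line. Eif1a was higher in CT26 KO by 0.17 and, centred on its 20 Mb stretch of chromosome, was not called at 0.01 (limma adjusted p 0.897). Eif1ad, named for its eIF1A-like domain, had 36.6, 36.5, 36.9 and 37.7 FPKM in KO and 45.9, 44.8, 46.0 and 46.0 FPKM in WT, a log2 fold change of -0.30 (SE 0.0284, limma adjusted p 4.25e-05).

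eIF5A carries the modified lysine hypusine and helps ribosomes past difficult stretches, and eIF6 keeps the large subunit from joining too early. EIF5A had 903, 962, 913 and 938 FPKM in MDA-MB-231 KO and 542, 539, 528 and 538 FPKM in WT, a log2 fold change of 0.79 (SE 0.0327, limma adjusted p 1.13e-07). Its paralogue EIF5A2 was 1 of the only 2 lower members, with 12.1, 14.9, 10.6 and 15.5 FPKM in KO and 16.7, 19.3, 17.9 and 22.0 FPKM in WT, a log2 fold change of -0.50 (SE 0.131, limma adjusted p 8.56e-03). The groups of both genes were separate, but those of EIF5A2 by little. EIF5A shares 14.5% of its distinct 50-base stretches with EIF5AL1, a near copy that was listed at 2.04 ± 0.0828 FPKM in KO and 1.17 ± 0.187 FPKM in WT (SD, n = 4 each). EIF6 averaged 700.0 ± 14.4 FPKM in KO and 403 ± 14.8 FPKM in WT of MDA-MB-231. In CT26 Eif6 had 413, 409.9, 397 and 436 FPKM in KO and 487, 525, 494 and 503 FPKM in WT, a log2 fold change of -0.28 (SE 0.0363, limma adjusted p 2.75e-04). Eif5a was not called, at 1186 ± 23.4 FPKM in KO and 1223 ± 48.9 FPKM in WT, and Eif5a2 did not exceed 0.0197 FPKM in any library.

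Of the members, 39 could be paired between the lines by symbol among the 8666 genes tested in both. The KO effect of MDA-MB-231 was above that of CT26 for 30 of them, where 50.1% of all pairs were, and below it for 0, where 22.1% of all pairs were. The other 9 were not called, and the median difference was 0.74 for the members and 0.30 for all pairs. Pairing by the same symbol left out EIF2S3 and EIF5A2, the only 2 members lower in MDA-MB-231 KO. The mouse counterpart of EIF2S3 is named Eif2s3x, and Eif5a2 did not pass the filter. EIF2S3 stood at -0.46 and Eif2s3x at -0.18, and the difference between them was not tested. By calls in each line, 9 pairs were higher in KO in both, namely EIF1, EIF1B, EIF2B2, EIF2S1, EIF3D, EIF4A1, EIF4A2, EIF4G2 and EIF5. Another 10 were higher in MDA-MB-231 KO and lower in CT26 KO, with EIF2S2 apart by 1.53 (limma adjusted p 1.03e-10), EIF3K by 1.17 (limma adjusted p 1.96e-11), EIF4B by 1.08 (limma adjusted p 2.81e-08) and EIF6 by 1.07 (limma adjusted p 1.43e-11). A further 13 were higher in MDA-MB-231 KO and not called in CT26, 3 were not called in MDA-MB-231 and lower in CT26, and 4 were called in neither. The shares of all pairs with these combinations of calls were not counted. Of the 10, EIF4E2 and EIF4H in MDA-MB-231 and Eif4a3 and Eif4b in CT26 lost their calls after upper-quartile scaling. Of the 9, EIF1 and EIF4G2 lost theirs in MDA-MB-231. After upper-quartile scaling 25 members had a higher KO effect in MDA-MB-231 than in CT26, against 33.2% of all pairs, and 6 a lower one, against 35.8%.

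In CT26 some of the members with large changes lay on chromosomes whose genes had moved together, and others did not. The median log2 fold change of the genes tested was 0.54 on mouse chromosome 12 (416 genes), -0.46 on chromosome 1 (658 genes), 0.27 on chromosome 14 and 0.24 on chromosome 8, and between -0.12 and -0.02 on every other chromosome. Eif2b2, Eif5 and Eif2s1, the 3 largest rises among the members, are the 3 members of chromosome 12. Eif5b and Eif4e2, which were lower at -0.70 and -0.59, lie on chromosome 1. When the median log2 fold change of the genes tested in the same fixed 20 Mb window was taken off, Eif2b2 stood at 0.11 (limma adjusted p 0.223), Eif2s1 at -0.05 (limma adjusted p 0.320) and Eif5 at 0.15 (limma adjusted p 0.0280). Eif5b then stood at -0.17 (limma adjusted p 0.0266) and Eif4e2 at -0.13 (limma adjusted p 0.0248). Eif2d on chromosome 1, which was not called at 0.10, then stood at 0.57 (limma adjusted p 7.22e-05). Chromosome 5 had a median of -0.08, but its windows differed, with 0.37 around Eif2b4, -0.25 around Eif3b and -0.26 around Eif4h. Eif3b kept -0.36, and Eif4h went from -0.53 to -0.27. Eif3c, on chromosome 7 with a median of -0.06, kept -0.45, and Eif1 and Eif1b kept 0.34 and 0.49. The window of Eif3a held only 10 genes, so the median of all genes was taken off instead and no window value is given for it. What moved the chromosome medians was not tested, and DNA was not measured here.

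The human genes EIF2B2, EIF5 and EIF2S1 likewise share chromosome 14, whose median log2 fold change was 0.28 in MDA-MB-231. Chromosome medians there ran from -0.23 on the X chromosome, which holds EIF2S3, to 0.52 on chromosome 10, which holds EIF3A. Less the median of their 20 Mb windows, EIF5 kept 0.85, EIF2S1 0.72 and EIF3J 1.13, and EIF2B2 stayed called as higher. EIF2A, whose window on chromosome 3 had a median of 0.82, kept 0.22 (limma adjusted p 6.97e-03), and EIF2S3 stayed at -0.42. With this centring 30 members were higher in MDA-MB-231 KO, against 31.6% of all genes, and 5 lower, against 31.2%. In CT26 KO 13 were higher, against 22.1% of all genes, and 12 lower, against 22.6%.

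**Figure D5:**
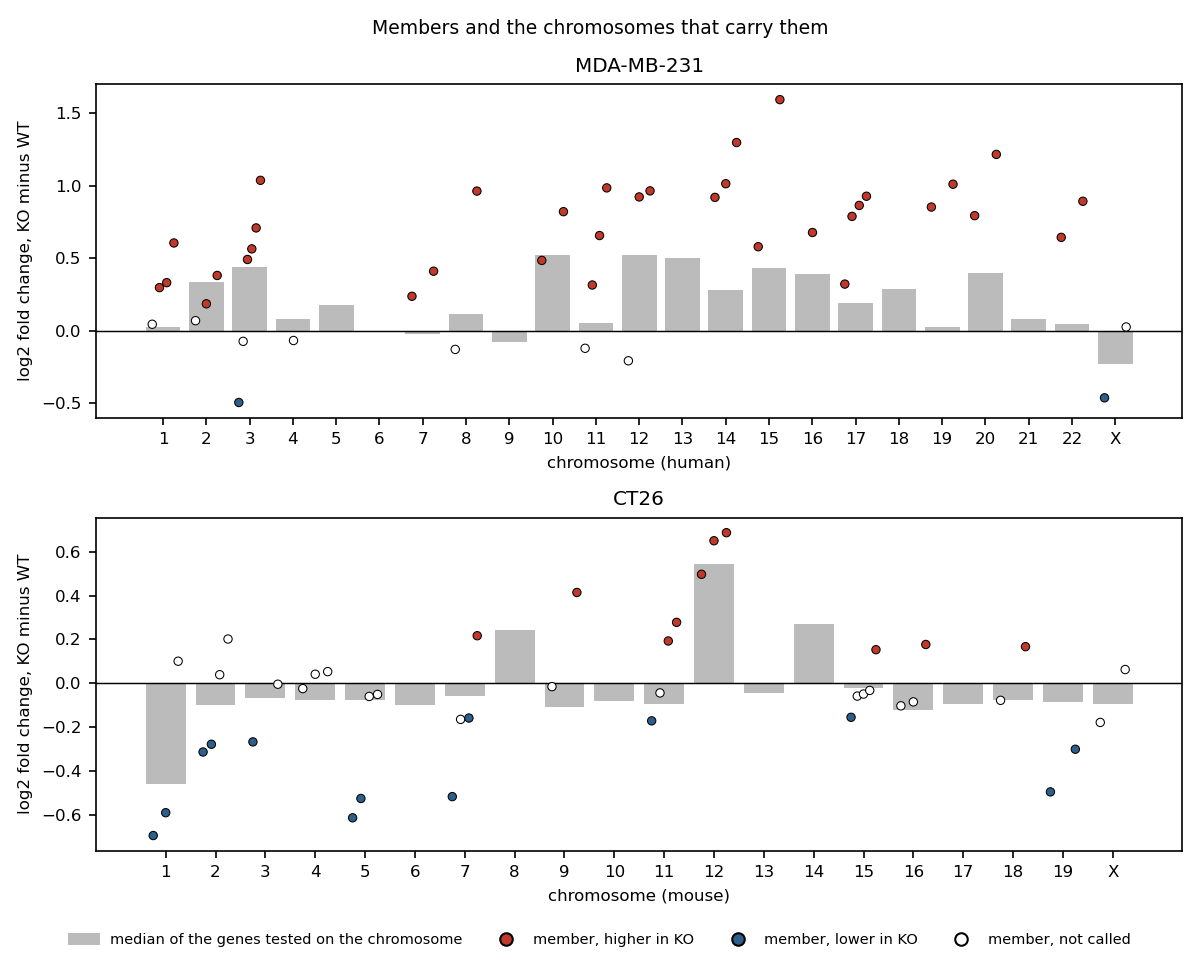
Log2 fold change, KO minus WT, of each tested member as a point over the median of all genes tested on its chromosome as a grey bar, for human chromosomes in MDA-MB-231 (top) and mouse chromosomes in CT26 (bottom). The 3 members of mouse chromosome 12 lie between 0.50 and 0.69 beside a chromosome median of 0.54, and Eif5b and Eif4e2 lie beside a median of -0.46 on chromosome 1.

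Regulators and partners of initiation, a list of 35 genes that holds the eIF2 kinases, eIF4E-binding proteins, poly(A)-binding proteins, elongation and release factors, went mostly the same way in MDA-MB-231. There 26 were higher in KO, against 42.6% of all genes, 7 were lower, against 25.7%, and 2 were not called, with a median log2 fold change of 0.56 against 0.18 for all genes. In CT26, 11 of the 33 tested were higher, against 22.3% of all genes, 10 were lower, against 33.4%, and 12 were not called, with a median of 0.03 against -0.06 for all genes. On the log2(FPKM + 1) scale the largest change was in PDCD4, a tumour suppressor that holds the helicase eIF4A, at 148 ± 6.84 FPKM in MDA-MB-231 KO and 30.2 ± 2.23 FPKM in WT (SD, n = 4 each), a log2 fold change of 2.26. EIF4EBP1, the repressor that sequesters eIF4E, averaged 189 ± 14.3 FPKM in KO and 79.0 ± 3.30 FPKM in WT. The release factor gene GSPT2 averaged 0.0660 ± 0.0635 FPKM in KO and 3.39 ± 0.215 FPKM in WT, a fall of which the log2 fold change of -2.04 gives only a part at so low a level. PAIP2, which displaces the poly(A)-binding protein, rose by 1.10 in MDA-MB-231 and Paip2 by 0.58 in CT26. EEF1B2, a subunit of the elongation factor exchange complex, rose by 1.09 in MDA-MB-231. In CT26 the largest change on that scale was in Eef1g, of the same complex, at 578 ± 8.85 FPKM in KO and 287 ± 14.3 FPKM in WT. Ppp1r15a and Ppp1r15b, which both direct a phosphatase to eIF2, changed by 0.65 and -0.65, and the eIF2 kinase gene Eif2ak2 by -0.61.

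The transcript of the targeted gene was not called in MDA-MB-231 and was lower in CT26 KO. CD274 averaged 10.6 FPKM in MDA-MB-231 KO and 12.2 FPKM in WT (log2 fold change -0.20, limma adjusted p 0.166), and Cd274 0.526 FPKM in CT26 KO and 1.41 FPKM in WT (log2 fold change -0.66, limma adjusted p 1.42e-04). The Cd274 libraries did not overlap, and at this low level log2(FPKM + 1) understates the fall. A CRISPR lesion need not lower its transcript, so this checks the labels weakly. Of the markers listed for MDA-MB-231, VIM was at 2545 FPKM in KO and 1113 FPKM in WT and EGFR at 44.5 FPKM in KO and 28.2 FPKM in WT, both higher in KO. CD44 was at 321 FPKM in KO and 1093 FPKM in WT and CAV1 at 414 FPKM in KO and 512 FPKM in WT, both lower in KO. ESR1 and PGR were at or near 0, and ERBB2 was at 17.8 FPKM in KO and 24.6 FPKM in WT. In CT26 Krt18 was at 31.6 FPKM in KO and 33.7 FPKM in WT, but the epithelial markers Cdh1, Epcam, Krt8 and Vil1 were at or near 0, and Cdx2 was at 0.930 FPKM in KO and 0.0415 FPKM in WT. The leukocyte markers PTPRC and CD3E and the endothelial markers PECAM1, CDH5 and VWF averaged under 1 FPKM in every group. CD68, a lysosomal protein used as a macrophage marker, was at 85.9 FPKM in MDA-MB-231 KO and 105 FPKM in WT and Cd68 at 3.55 FPKM in CT26 KO and 5.30 FPKM in WT, lower in KO in both lines. The part of other cells in these results was not tested. The KO libraries of MDA-MB-231 were shallower, at 0.509 to 0.779 of the depth of WT replicate 1 against 0.941 to 1.21 in WT, and those of CT26 ranged from 0.926 to 2.49 against 0.799 to 1.14 in WT. The part of depth in these results was not tested.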

How the data were processed

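The 16 libraries fell into 4 groups of 4 by the labels. Per the submitters' processing notes, bcl2fastq 2.18, STAR 2.5.4a, Cufflinks 2.2.1 and Cuffdiff were used with builds hg38 and mm10, while the sources used here give neither the annotation release nor the strand use nor the Cuffdiff settings. The authors deposited 1 table per line with a value in FPKM for each gene and library and their own q-value for each gene, per the file headers. The tables were normalized apart, so levels were not compared between lines. Depth is known only relative to WT replicate 1 of a line, from the steps between low FPKM values. Rows the authors marked as failed or as having too much data were not tested.

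The members and all lists were chosen with earlier results of these data known. Values were analysed as log2(FPKM + 1), which understates the change of low genes, in genes with at least 1 FPKM in at least 4 of the 8 libraries of a line, 14450 in MDA-MB-231 and 11341 in CT26. limma 3.58.1 (R 4.3.3) compared KO with WT two-sided, with genotype as its only term and with the variance allowed to follow the mean level. P-values were adjusted by Benjamini-Hochberg over every gene tested, and calls were made under 0.05. For the difference between lines, 8666 genes paired by symbol were fitted over all 16 libraries. The fit was checked on simulated data in which 200 genes were changed. Each chromosome was split into fixed windows of 20 Mb, and window centring took from each gene the median log2 fold change of the genes tested in its window, itself included, or of all genes tested where the window held fewer than 20. The members to be named were, per line, the 10 largest rises and the 10 largest falls among called members, and the paralogue pairs. Some of these, such as EIF3H, Eif4a1 and Eif1a, are given by means or changes only. The others named were chosen after their values were seen, and of them EIF3A and the human EIF5 are given for every library. Shared 50-base stretches were counted on both strands in GENCODE 29 transcripts, and start windows are from RefSeq on GRCh38.p14. No protein table and no mouse sequences were used here. EIF1AY is Y-linked and its level is not given. Alternatives tried were other pseudocounts, filters, scalings, a replicate block, window centring and leaving out each library. Same-numbered KO and WT libraries share only a number. Python 3.11.15 with pandas 2.3.3 and matplotlib 3.10.9 served for tables and plots.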

Additional observations from a re-analysis of the deposited data

Results flagged for a closer look

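In 7 of 176 groups of 4 libraries 1 library stood apart from the other 3 by Dixon's test, which chance does in about 1 of 20 groups. EIF2B5 read 70.7 FPKM in MDA-MB-231 KO replicate 1, against 61.3 to 62.3 FPKM in the other KO libraries, and EIF3G 239.8 FPKM in KO replicate 3, against 270.2 to 276 FPKM. EIF4G3 read 32.4 FPKM in MDA-MB-231 WT replicate 2, against 26.3 to 27.2 FPKM in the other WT libraries. In CT26, Eif2b5 read 49.8 FPKM in KO replicate 3, against 44.0 to 44.2 FPKM, and 50.1 FPKM in WT replicate 1, against 48.4 to 48.6 FPKM. Eif4a1 read 455 FPKM in CT26 KO replicate 2, against 443 to 445 FPKM, and Eif1ad 44.8 FPKM in WT replicate 2, against 45.9 to 46.0 FPKM.

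In a fit of both lines the KO effect differed between the lines for 30 of the 39 paired members (limma, adjusted p under the threshold). In every case the larger value was in MDA-MB-231. Of all pairs, 50.1% were called larger there and 22.1% smaller, and the median difference of all pairs was 0.30. EIF2S3 and EIF5A2, both lower in MDA-MB-231 KO, were not paired. On the log2 scale, MDA-MB-231 minus CT26, the difference was 1.53 for EIF2S2, 1.04 for EIF2A, 0.52 for EIF2S1, 1.03 for EIF2B1, 0.61 for EIF2B2, 0.29 for EIF2B3 and 0.59 for EIF2B5. Among eIF3 genes it was 1.32 for EIF3A, 1.03 for EIF3B, 1.20 for EIF3C, 0.74 for EIF3D, 0.82 for EIF3F, 0.87 for EIF3G, 1.02 for EIF3H, 0.63 for EIF3I, 1.17 for EIF3K, 0.68 for EIF3L and 0.95 for EIF3M. Among eIF4 genes it was 0.74 for EIF4A1, 0.39 for EIF4A2, 1.04 for EIF4A3, 1.08 for EIF4B, 0.97 for EIF4E2, 0.24 for EIF4G3 and 0.76 for EIF4H. It was 0.30 for EIF1B, 0.27 for EIF5, 0.76 for EIF5B, 0.83 for EIF5A and 1.07 for EIF6.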

How the results depend on the processing

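The counts of members lower in MDA-MB-231 KO and higher in CT26 KO depended on the scaling. Lower members in MDA-MB-231 numbered 2 as deposited, where 25.7% of all genes were lower, 9 after upper-quartile scaling (33.6%), 8 after quantile normalization (30.1%) and 5 after centring on 20 Mb windows (31.2%). Higher members in CT26 numbered 10 as deposited, where 22.3% of all genes were higher, 16 after upper-quartile scaling (29.2%), 12 after quantile normalization (25.5%) and 13 after centring (22.1%). Paired members with a lower KO effect in MDA-MB-231 than in CT26 numbered 0 as deposited (22.1% of all pairs). They numbered 6 after upper-quartile scaling (35.8%) and 6 after quantile normalization (31.8%). When 1 library was left out they numbered 0 to 1, the 1 without MDA-MB-231 KO replicate 2. After window centring EIF4E2 reversed to -0.074 and Eif2s1 to -0.054. Eif4g1 reversed to 0.0071 after upper-quartile scaling and 0.018 after centring, and Eif5a to 0.048 and 0.041, and neither was called under any of these. Leaving out each library in turn gave 34 to 35 higher members in MDA-MB-231 (40.5% to 41.7% of all genes) and 2 to 3 lower (24% to 25.2%). In CT26 it gave 10 higher (20.1% to 21.9% of all genes) and 11 to 14 lower (30.8% to 32.2%). With the replicate number as a replicate block 34 members were higher in MDA-MB-231 (41.7% of all genes) and 2 lower (25.1%). With that block in CT26, 10 were higher (21.1% of all genes) and 14 lower (32.1%). Same-numbered libraries correlated at -0.037 to 0.0044 in MDA-MB-231, where none of the 4 matched its own number best, and at 0.027 to 0.078 in CT26, where all 4 did, as a hint from the data and not the design. For the named members, 694 of 720 alternative values kept direction and side of the threshold. Of the rest, 12 were weaker, 8 stronger and 6 reversed. The filter at 5 FPKM leaves no value for EIF3C and other low members. FPKM carry no counts, so no counting interval was given, and the shallower MDA-MB-231 KO libraries limit the low members most.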
